A study of Mus musculus with 36 samples.

Results

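The 7 microRNAs (miRNAs) of striated muscle described here were followed through 36 small RNA libraries of the mouse prostate. They were mmu-miR-1a-3p, mmu-miR-133a-3p, mmu-miR-133a-5p, mmu-miR-133b-3p, mmu-miR-206-3p, mmu-miR-208b-3p and mmu-miR-499-5p, which were taken by name as 7 of the 1963 miRNAs listed. The libraries came from the ventral and lateral prostate lobes of male mice on a background labelled C56NL/6N. WT mice carried the wild-type Elac2 gene, which encodes an RNase that trims the 3′ end of precursor transfer RNAs. KO mice had lost exon 8 of Elac2 through a Cre recombinase under the probasin promoter, so the deletion was limited to the prostate cells in which this promoter is active. A537T mice were homozygous for threonine in place of alanine in ELAC2 in every cell of the body. Each of these lines was also studied as a heterozygous carrier of the TRAMP transgene, in which the probasin promoter drives the SV40 T antigens in prostate epithelium, and these groups are named by the line followed by TRAMP, as in WT-TRAMP. Animals were littermates of matched age, at 10 or 30 weeks, and each of the 12 groups held 3 libraries.

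In textbook accounts, miR-1 and miR-133a are made from shared precursor transcripts in skeletal and cardiac muscle, where miR-1 favours differentiation and miR-133 favours the growth of myoblasts. miR-206, a close relative of miR-1, and miR-133b are made together from another transcript that is largely confined to skeletal muscle and is raised in regenerating fibres. miR-208b and miR-499 lie within introns of myosin heavy chain genes of slow muscle and are known for promoting the slow fibre program. The rodent urethra is surrounded by a striated sphincter that lies close to the prostate lobes, and the urethra was removed at dissection according to the methods, while the prostate stroma itself holds smooth muscle, which is marked by miR-143 and miR-145.

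Mature sequences in the RefSeq table of build GRCm38.p6 matched 4 of the 7 members. They are shown because the seed, bases 2 to 8 from the 5′ end and written in capitals, sets which messenger RNAs a miRNA pairs with. The heart miRNA mmu-miR-208a-3p is added for comparison.
mmu-miR-206-3p: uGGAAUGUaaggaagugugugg
mmu-miR-133b-3p: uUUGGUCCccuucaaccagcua
mmu-miR-208b-3p: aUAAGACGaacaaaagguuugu
mmu-miR-499-5p: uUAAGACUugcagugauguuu
mmu-miR-208a-3p: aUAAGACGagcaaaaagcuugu
Among the sequences shown, the seeds of mmu-miR-206-3p and mmu-miR-133b-3p were unlike each other and unlike the rest. For mmu-miR-1a-3p, mmu-miR-133a-3p and mmu-miR-133a-5p no sequence was at hand, so seeds shared with these members could not be seen. mmu-miR-208b-3p and mmu-miR-499-5p shared 6 of 7 seed bases and 10 of the 21 bases aligned from the 5′ end. mmu-miR-208b-3p and mmu-miR-208a-3p had the same seed and 19 of 22 identical bases, so these miRNAs were told apart by only a few bases.

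In GRCm38 the members lie at a few loci. Mir206 (chr1:20679010-20679082, plus strand) and Mir133b (chr1:20682769-20682887, plus strand) are 3686 bases apart and both fall in exons of the long noncoding RNA gene Gm28653. Mir1a-1 (chr2:180389048-180389124, plus strand) and Mir133a-2 (chr2:180398379-180398482, plus strand) are 9254 bases apart and lie in no other annotated gene. Mir499 (chr2:155622880-155622958, plus strand) is in an intron of Myh7b, and Mir208b (chr14:54975700-54975776, minus strand) is in an intron of Myh7, each on the strand of its host gene. mmu-miR-1a-3p and both arms of miR-133a also have a second gene copy, and the reads of the copies cannot be told apart. Reads could likewise be split between mmu-miR-133a-3p and mmu-miR-133b-3p or between mmu-miR-1a-3p and mmu-miR-206-3p, which are near relatives, so the balance within these pairs is uncertain.

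Levels are given as CPM, the reads of a miRNA per 1000000 miRNA reads of its library. The libraries held 4544257 to 21870210 miRNA reads, with the exception of A537T library 35 of 10 weeks, which had 655455. A single read was worth 1.53 CPM in library 35, which makes its values for the rare members coarse. Groups were read from the names of the deposited tables and were not checked by a measurement of Elac2. The 8 miRNAs listed for prostate epithelium were detected in all groups and made up 4.10% to 10.3% of the reads that did not belong to the 7 members. In whole lobes, fewer or more muscle cells and a different amount of RNA per cell cannot be told apart, and p-values measure the spread between libraries.

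The 7 members together took a larger share of the miRNA pool in WT and A537T prostates of 10 weeks without TRAMP, and in KO library 32 of that age, than in any other library. In WT mice of 10 weeks they held 9.73%, 19.05% and 30.7% of all miRNA reads (libraries 28, 29 and 30). In A537T mice of that age they held 13.7%, 8.36% and 3.72% (libraries 34, 35 and 36). In KO mice they held 0.773%, 6.51% and 0.736% (libraries 31, 32 and 33). At this depth counting error is small, and the 95% Wilson interval of WT library 30 ran from 30.65% to 30.69%. Both the WT and the A537T libraries were spread over a range of several percentage points. KO library 32 stood with the A537T libraries, whereas the other two KO libraries were near the level of older mice. In the 27 libraries of the other 9 groups the share ran from 0.187% to 3.09%, with KO-TRAMP library 9 of 10 weeks as the highest.

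**Figure D1:**
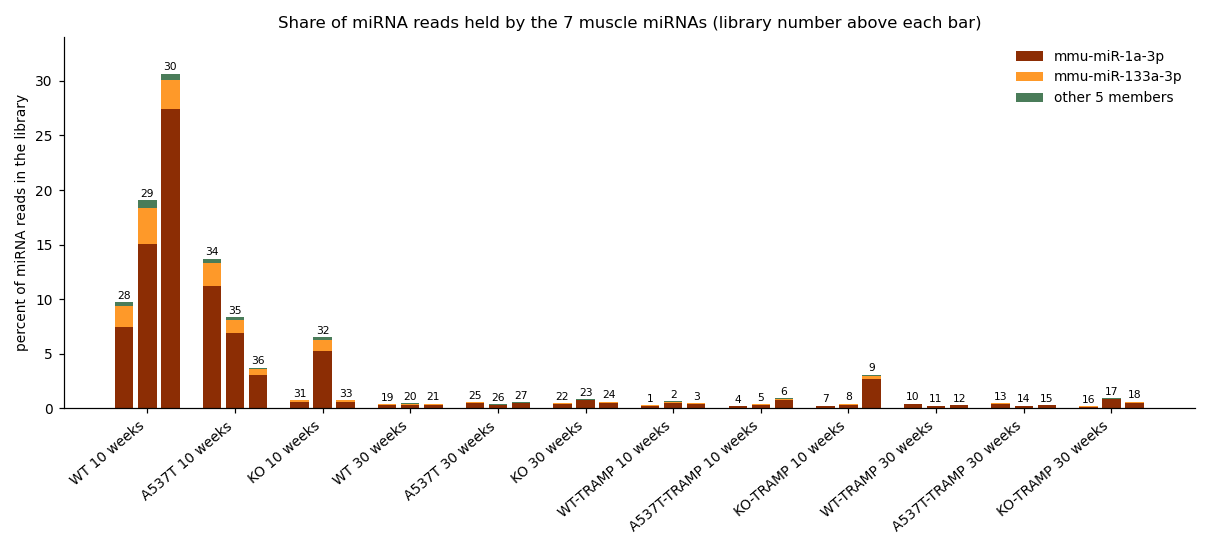
Each bar is 1 library, grouped by line and age, and its height is the percent of miRNA reads held by the 7 muscle miRNAs, divided into mmu-miR-1a-3p, mmu-miR-133a-3p and the other 5. The WT libraries of 10 weeks reached 9.73% to 30.7%, and outside the groups of 10 weeks without TRAMP no bar exceeded 3.09%.

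mmu-miR-1a-3p carried most of this signal, with 75.4% to 91.6% of the reads of the 7 members in every library. Its level was 74928, 150996 and 273783 CPM in WT mice of 10 weeks. It was 111756, 68861 and 30691 CPM in A537T mice and 6253, 52261 and 5846 CPM in KO mice of the same age. The WT libraries were all above the KO libraries, but WT library 28 lay within the range of A537T. Over the other 27 libraries the level had a median of 3495 CPM and ran from 1649 to 27322 CPM. Ordered by mean, WT, A537T and KO of 10 weeks came first, followed by KO-TRAMP of 10 weeks, and each group overlapped the next in the order.

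mmu-miR-133a-3p had 3.23% to 22.13% of the summed reads and was second in every library but KO-TRAMP libraries 17 and 18 of 30 weeks. There mmu-miR-499-5p was second, with 6.62% and 6.50%, against 3.23% and 6.09% for mmu-miR-133a-3p. In WT mice of 10 weeks it stood at 18824, 32625 and 26937 CPM, in A537T mice at 21685, 12448 and 5334 CPM, and in KO mice at 1326, 10448 and 1371 CPM. Again the KO libraries fell into 1 high and 2 low. Without TRAMP at 30 weeks it was even across the 3 lines, with all 9 libraries between 680 and 963 CPM. mmu-miR-133b-3p had 104 to 2531 CPM at 10 weeks without TRAMP and 13.4 to 205 CPM in the other 27 libraries. In KO libraries 31, 32 and 33 it had 18.3, 18.08 and 17.8 reads per 1000 reads of mmu-miR-1a-3p. mmu-miR-206-3p, its neighbour on the chromosome, had 4.05, 24.07 and 3.60. Since reads of mmu-miR-133a-3p could be counted with mmu-miR-133b-3p, the latter is not shown to be a separate reading of its own gene. The 5p arm mmu-miR-133a-5p, the less used strand of the precursor, gave 0.592% to 2.99% of the reads of both miR-133a arms.

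mmu-miR-206-3p had a standard deviation (SD) of 3.13 on the log2 CPM scale over 36 libraries, the largest of the 5 members with reads in every library, against 1.98 for mmu-miR-1a-3p. In WT mice of 10 weeks it stood at 1790, 3859 and 3486 CPM and in A537T mice at 1766, 1268 and 776 CPM. In KO mice it stood at 25.3, 1258 and 21.02 CPM. The WT group lay above the A537T group with no overlap, and KO library 32 was about level with A537T library 35. At 30 weeks without TRAMP the WT libraries spread from 5.09 to 154 CPM and the KO libraries from 3.52 to 87.8 CPM, whereas the A537T libraries were all between 2.67 and 6.58 CPM.

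The slow fibre members were rare. mmu-miR-208b-3p had 40, 79 and 143 reads in the WT libraries of 10 weeks, or 2.27, 5.10 and 8.36 CPM. It had 42, 1 and 1 reads in A537T of that age (libraries 34, 35 and 36), or 2.90, 1.53 and 0.0634 CPM, as library 35 was shallow. In KO of that age it had 2, 18 and 1 reads, or 0.108, 1.45 and 0.0676 CPM. The libraries with 1 or 2 reads thus rest on very few reads. In the other 27 libraries it was at 0 in 21, and the highest of the rest was 0.313 CPM. In WT libraries of 30 weeks, 0 reads allow up to 0.176 to 0.2198 CPM, counting 3 reads as the limit. mmu-miR-499-5p stood at 17.5, 39.9 and 106 CPM in WT, at 24.7, 16.8 and 0.697 CPM in A537T and at 0.485, 9.98 and 0.744 CPM in KO mice of 10 weeks. Both slow members were therefore near absent from A537T library 36, which still held 776 CPM of mmu-miR-206-3p.

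**Figure D2:**
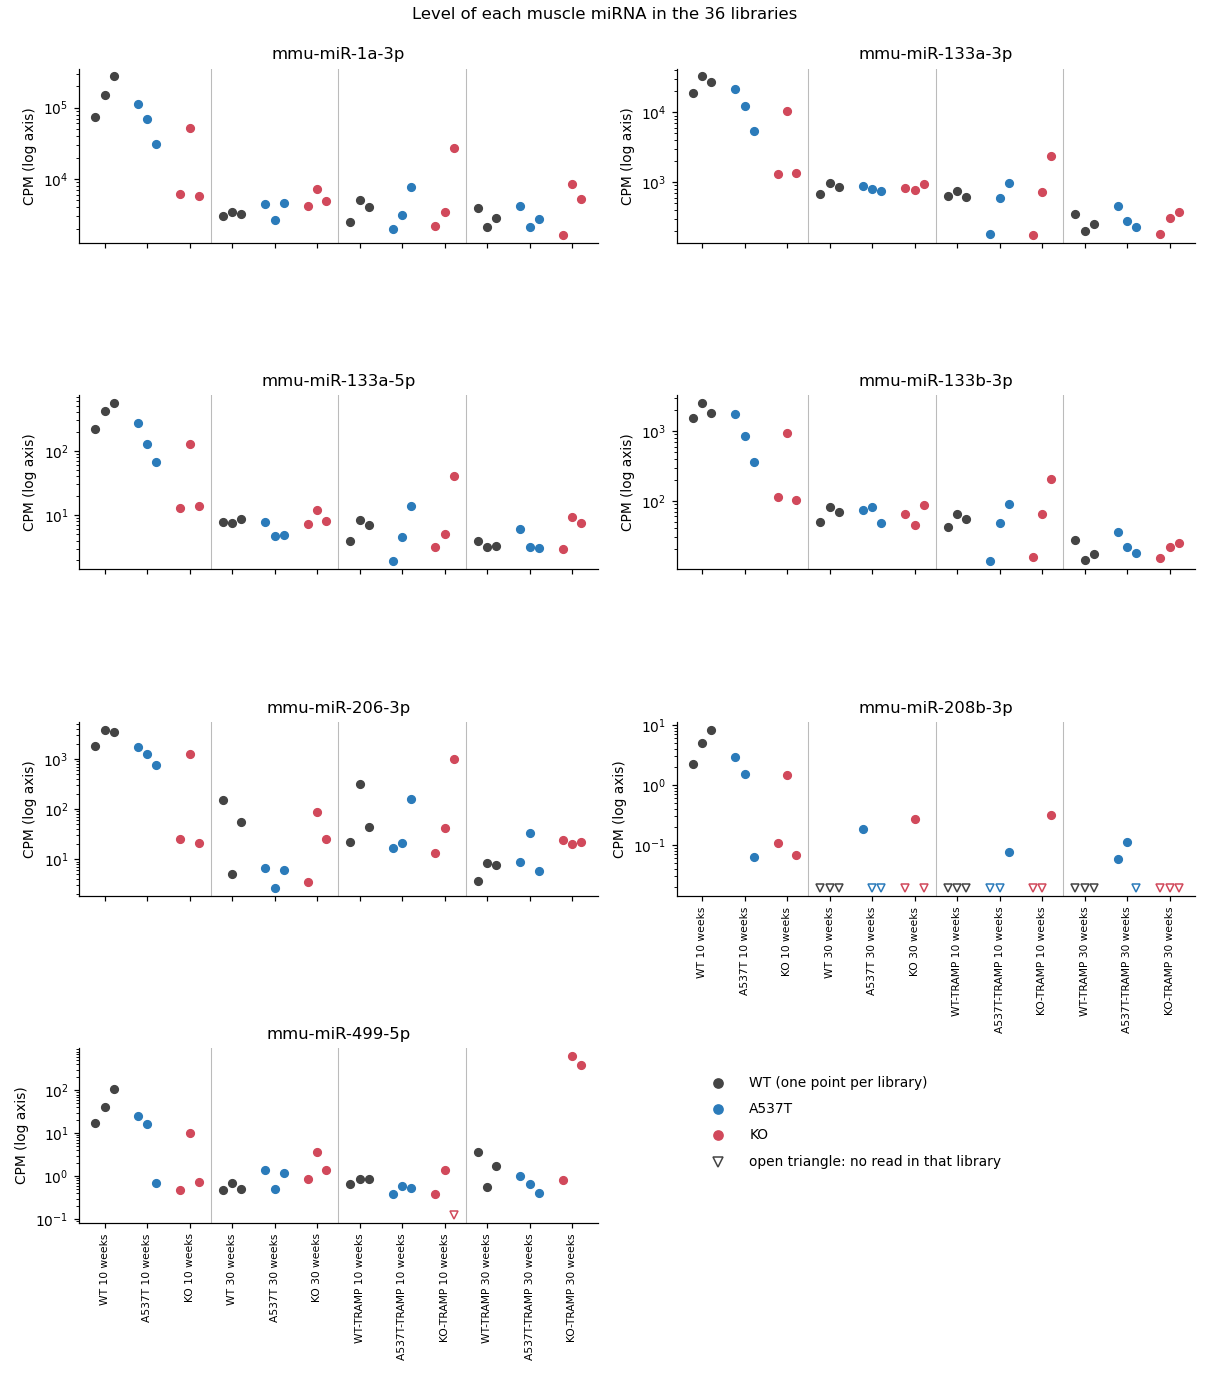
The level of each of the 7 members in CPM on a log axis is plotted for the 36 libraries, with groups along the x axis, 1 point per library, and open triangles for libraries with no read. The highest point is a WT library of 10 weeks for every member but mmu-miR-499-5p, whose highest points, 620.5 and 400 CPM, are 2 KO-TRAMP libraries of 30 weeks.

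The first question was whether the members differ between each mutant line and WT at 10 weeks. Testing used limma on log2(CPM + 1), which understates the change of rare miRNAs, with Benjamini-Hochberg adjustment over all miRNAs tested and a threshold of 0.05. Between KO and WT, 0 of 7 members passed, as did 0% of all 513 miRNAs tested. The groups did not overlap for any of the 7 members, but how many of all 513 miRNAs lacked overlap was not counted. An unadjusted p under 0.05 was reached by 7 of 7 members and by 71 of all 513. Of these members, mmu-miR-208b-3p was abundant enough to be tested only through the WT libraries, as its KO mean was 0.541 CPM. The log2 difference KO minus WT was -3.55 ± 0.88 (standard error, SE) for mmu-miR-1a-3p, with an adjusted p of 0.201. It was -3.25 ± 0.77 (SE) for mmu-miR-133a-3p, with an adjusted p of 0.201, and -5.004 ± 1.45 (SE) for mmu-miR-206-3p, with an adjusted p of 0.267. The median difference over the members was -3.55, beside 0.18 over all miRNAs tested.

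This comparison turned on single libraries and on the tool. edgeR's quasi-likelihood test called 0 of the 7, whereas DESeq2's Wald test called 6 and a limma fit of all 36 libraries called 6. Without KO library 32, limma called 6 of 7, and without WT library 28 it also called 6. Smooth muscle miRNAs, 4 of which were listed, made up 31.9% to 35.6% of the other reads in KO and 9.72% to 32.8% in WT libraries, and within the WT group they were lowest in library 30, where the members were highest. Their part in the difference was not tested.

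Between A537T and WT at 10 weeks, 0 of 7 members passed, as did 0% of 516 miRNAs. The unadjusted p was under 0.05 for 6 of the 7 members and for 22 of all miRNAs, and edgeR, DESeq2 and the fit of all 36 libraries also called 0 members. The log2 difference A537T minus WT was -1.24 ± 0.54 (SE) for mmu-miR-1a-3p and -1.17 ± 0.46 (SE) for mmu-miR-133a-3p, both with an adjusted p of 0.893. For mmu-miR-206-3p, the only member with no overlap between the groups, it was -1.26 ± 0.39 (SE), also with an adjusted p of 0.893. How many of all 516 miRNAs lacked overlap was not counted. All 7 differences were negative, with a median of -1.26 beside 0.14 over all miRNAs.

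The members were lower at 30 than at 10 weeks in WT prostates. Here and below, a fall means a lower level in a group of other animals. The amount of striated muscle in each dissection was not measured, and its part in the differences was not tested. From 10 to 30 weeks, 7 of 7 passed the test, all downward, where 3.91% of the 511 miRNAs tested passed (20 miRNAs). mmu-miR-208b-3p and mmu-miR-499-5p reached the mean of 1 CPM needed for testing only through the libraries of 10 weeks. Their means were 5.24 and 54.5 CPM at 10 weeks and 0 and 0.557 CPM at 30 weeks, so their calls are tied to that threshold. mmu-miR-1a-3p fell from a mean of 166569 ± 100338 to 3233 ± 221 CPM (SD, n = 3), a log2 difference of -5.50 ± 0.44 (SE) with an adjusted p of 0.00125 in limma. mmu-miR-133a-3p fell by 4.95 on the log2 scale (SE 0.25), with an adjusted p of 0.000288, and mmu-miR-206-3p fell by 6.26 (SE 1.13), with an adjusted p of 0.0340. mmu-miR-208b-3p was at 0 in all 3 WT libraries of 30 weeks, at least 26.1-fold lower than at 10 weeks when 3 reads per library are taken as the limit. For none of the 7 did the groups overlap, which was not counted for all 511 miRNAs. The median difference over the members was -4.95, beside 0.14 over all miRNAs tested.

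mmu-miR-206-3p, mmu-miR-208b-3p and mmu-miR-499-5p did not keep these calls under all alternatives. Without WT library 21 or without WT library 29 the count fell to 4 of 7, as mmu-miR-206-3p, mmu-miR-208b-3p and mmu-miR-499-5p no longer passed. A pseudocount of 10 CPM ended the calls of mmu-miR-208b-3p (adjusted p of 0.0860) and mmu-miR-499-5p (0.0643), and leaving out WT library 20 ended that of mmu-miR-208b-3p (0.0667). mmu-miR-206-3p also no longer passed without WT library 28 (adjusted p of 0.0753) or 30 (0.129). Over all alternatives its adjusted p reached 0.139, and edgeR gave it 0.0731.

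In A537T prostates, 5 of the 6 members tested fell with age, where 15.5% of 509 miRNAs passed. mmu-miR-206-3p had the largest fall of the 6, from 1766, 1268 and 776 CPM to 6.58, 2.67 and 6.16 CPM, a log2 difference of -7.69 ± 0.37 (SE) with an adjusted p of 2.13e-06 in limma. mmu-miR-1a-3p fell by 4.02 on the log2 scale (SE 0.43) and mmu-miR-133a-3p fell by 3.81 (SE 0.43), each with an adjusted p of 0.000638. mmu-miR-499-5p had a difference of -2.21 ± 0.86 (SE) and did not pass, with an adjusted p of 0.131, since A537T library 36 was already at 0.697 CPM. Without that library it passed, with an adjusted p of 0.00133. mmu-miR-208b-3p was too rare to enter the test.

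In KO prostates, 0 of 6 members tested passed between 30 and 10 weeks, where 25.2% of 504 miRNAs did. None of the 6 had an unadjusted p under 0.05, against 219 of all miRNAs, edgeR and the fit of all 36 libraries called 0, and DESeq2 called 1. The log2 difference 30 minus 10 weeks was -1.23 ± 0.81 (SE) for mmu-miR-1a-3p, with an adjusted p of 0.275, and -1.66 ± 0.75 (SE) for mmu-miR-133a-3p, with an adjusted p of 0.133. For mmu-miR-206-3p it was -2.04 ± 1.71 (SE), with an adjusted p of 0.382. The wide errors came with KO library 32, and without it mmu-miR-133a-3p passed with a smaller difference of -0.67 and an adjusted p of 0.0448, the 1 member called.

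The members were also lower with the TRAMP transgene at 10 weeks. Between WT-TRAMP and WT, 7 of 7 passed, all downward, where 24.2% of 508 miRNAs passed. Here too mmu-miR-208b-3p and mmu-miR-499-5p reached the mean of 1 CPM needed for testing only through the WT libraries. Their means in WT-TRAMP were 0 and 0.790 CPM, so their calls are tied to that threshold. mmu-miR-1a-3p stood at 2504, 5147 and 4070 CPM in WT-TRAMP, a log2 difference of -5.28 ± 0.47 (SE) with an adjusted p of 0.000503 in limma. mmu-miR-133a-3p fell by 5.28 (SE 0.24), with an adjusted p of 1.85e-05, and mmu-miR-206-3p fell by 5.38 (SE 0.88), with an adjusted p of 0.00426, on the same scale. mmu-miR-208b-3p was at 0 in all 3 WT-TRAMP libraries, at least 12.0-fold lower by the limit of 3 reads. No member's groups overlapped, which was not counted for all 508 miRNAs, and 7 of 7 were called whichever library was left out. The median over the members was -5.28, beside -0.05 over all miRNAs. The age and the TRAMP comparisons share the same 3 WT libraries of 10 weeks, so they are not independent of each other.

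In A537T mice of 10 weeks, 6 of 6 members tested passed, all lower with TRAMP, where 33% of 512 miRNAs passed. mmu-miR-1a-3p stood at 1965, 3136 and 7788 CPM in A537T-TRAMP, a log2 difference of -4.09 ± 0.55 (SE) with an adjusted p of 0.00194 in limma. The differences were -4.57 ± 0.63 (SE) for mmu-miR-133a-3p, with an adjusted p of 0.00194, and -4.91 ± 0.73 (SE) for mmu-miR-206-3p, with an adjusted p of 0.00206. mmu-miR-499-5p passed narrowly, at -2.60 ± 0.85 (SE) with an adjusted p of 0.0408. It was abundant enough to be tested only through the A537T libraries, at a mean of 14.04 CPM against 0.512 CPM in A537T-TRAMP. It no longer passed with a pseudocount of 10 CPM (adjusted p of 0.0518), with no filter (0.0775) or in the fit of all 36 libraries (0.0994). Nor did it pass without A537T library 34 (0.120) or 35 (0.106), or without A537T-TRAMP library 4 (0.0849), 5 (0.0784) or 6 (0.0904).

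In KO mice of 10 weeks, 0 of 6 members tested passed between KO-TRAMP and KO, where 43.9% of 510 miRNAs did. None had an unadjusted p under 0.05, against 283 of all miRNAs, edgeR and DESeq2 called 0, and the fit of all 36 libraries called 2. mmu-miR-1a-3p stood at 2167, 3495 and 27322 CPM in KO-TRAMP, so that library 9 lay above 2 of the 3 KO libraries. The log2 difference was -1.07 ± 1.15 (SE) for mmu-miR-1a-3p, with an adjusted p of 0.450, -1.99 ± 1.11 (SE) for mmu-miR-133a-3p, with an adjusted p of 0.166, and -0.10 ± 1.99 (SE) for mmu-miR-206-3p, with an adjusted p of 0.966. The median over the members was -1.31, beside -0.41 over all miRNAs.

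**Figure D3:**
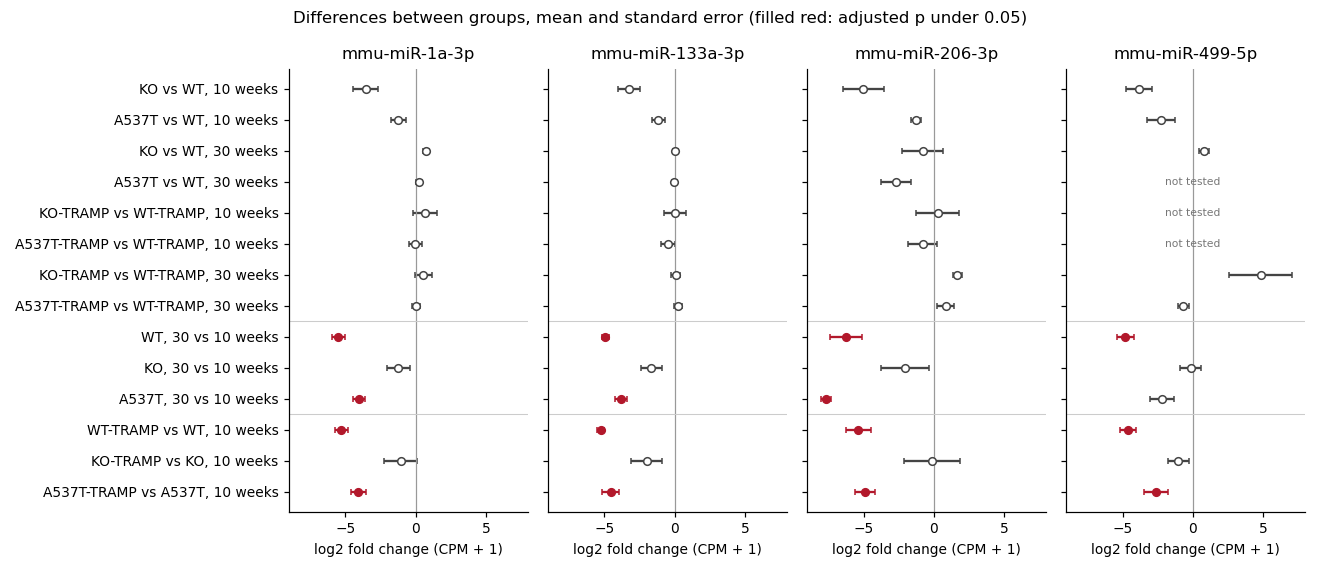
Points give the log2 fold change of CPM + 1 for 4 members in 14 comparisons of 3 against 3 libraries, first group minus second, with bars of 1 standard error and filled red points for an adjusted p under 0.05. The red points all lie in the age and TRAMP comparisons of WT and A537T, with log2 differences from -2.60 to -7.69. In these comparisons only mmu-miR-499-5p in A537T with age is not red (adjusted p of 0.131 in limma). No comparison of a mutant with WT has a red point.

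Markers of other cell types were counted in the same comparisons, to be read against the shares of all miRNAs that passed. From 10 to 30 weeks in WT mice, where 3.91% of all miRNAs passed, 0 of 4 smooth muscle and 0 of 5 white cell miRNAs passed and 1 of 8 epithelial miRNAs rose, while mmu-miR-486ab-5p, listed with red cells but also known from muscle, fell by 1.95 on the log2 scale (SE 0.38) with an adjusted p of 0.0424. The 3 other red cell miRNAs, among them mmu-miR-451a, did not pass. From 10 to 30 weeks in A537T mice, where 15.5% passed, 1 of 8 epithelial miRNAs (mmu-miR-375-3p, by 2.59) and 2 of 5 white cell miRNAs (mmu-miR-142a-3p and mmu-miR-142a-5p, by 0.83 and 1.14) rose, 1 of 4 red cell miRNAs (mmu-miR-451a) fell by 0.78, and 0 of 4 smooth muscle miRNAs passed. Between WT-TRAMP and WT, where 24.2% passed, 3 of 8 epithelial miRNAs and 1 of 5 white cell miRNAs (mmu-miR-142a-5p, by 1.82) rose and 0 of 4 smooth muscle miRNAs passed, while mmu-miR-486ab-5p was again the 1 red cell miRNA that fell, by 3.32 (SE 0.31). Between A537T-TRAMP and A537T, where 33% passed, 3 of 4 red cell, 3 of 5 white cell, 1 of 4 smooth muscle and 1 of 8 epithelial miRNAs fell, and 1 epithelial miRNA rose. In KO mice from 10 to 30 weeks, where 25.2% passed, 3 of 4 red cell miRNAs fell, while 2 of 5 white cell and 1 of 8 epithelial miRNAs rose. There, 0 of 4 smooth muscle miRNAs passed. Between KO-TRAMP and KO, where 43.9% passed, 4 of 4 smooth muscle and 3 of 4 red cell miRNAs fell. Of the 8 epithelial miRNAs 5 rose and 2 fell, and of the 5 white cell miRNAs 2 rose and 1 fell. The part of these markers in the fall of the members was not tested.

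At 30 weeks no member passed the test between a mutant line and WT. Between KO and WT, 0 of 6 members tested passed, as did 0% of 495 miRNAs. mmu-miR-1a-3p stood at 4118, 7284 and 4947 CPM in KO and at 2995, 3433 and 3271 CPM in WT. These values did not overlap, which was not counted for all 495 miRNAs. The log2 difference was 0.71 ± 0.22 (SE), with an adjusted p of 0.351. mmu-miR-1a-3p was the 1 member with an unadjusted p under 0.05, a level reached by 63 of all miRNAs. DESeq2 called 2 members, mmu-miR-1a-3p and mmu-miR-499-5p, while edgeR and the fit of all 36 libraries called 0. mmu-miR-499-5p was abundant enough to be tested only through the KO libraries, at a mean of 1.97 CPM against 0.557 CPM in WT. mmu-miR-133a-3p differed by only 0.04 ± 0.18 (SE), with an adjusted p of 0.955, a difference whose sign changed when some libraries were left out. For mmu-miR-206-3p the difference was -0.78 ± 1.47 (SE), with an adjusted p of 0.856, and its sign also depended on single libraries.

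Between A537T and WT at 30 weeks, 0 of 5 members tested passed, as did 0% of 496 miRNAs, and edgeR, DESeq2 and the fit of all 36 libraries called 0. The 1 member with an unadjusted p under 0.05 was mmu-miR-206-3p, at -2.69 ± 1.09 (SE) with an adjusted p of 0.724, where 29 of all miRNAs had such a p. WT library 20, at 5.09 CPM, lay within the A537T range. mmu-miR-1a-3p differed by 0.23 ± 0.24 (SE), with an adjusted p of 0.731, and mmu-miR-133a-3p by -0.04 ± 0.19 (SE), with an adjusted p of 0.927 and a sign that turned under another scaling.

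On the TRAMP background at 10 weeks, 0 of 5 members passed between KO-TRAMP and WT-TRAMP, as did 0% of 491 miRNAs, and 0 of 5 passed between A537T-TRAMP and WT-TRAMP, as did 0% of 493. No member had an unadjusted p under 0.05 in either comparison, against 16 and 33 of all miRNAs, and edgeR, DESeq2 and the fit of all 36 libraries called 0 members. The log2 difference of mmu-miR-1a-3p was 0.66 ± 0.83 (SE) for KO-TRAMP, with an adjusted p of 0.845, and -0.04 ± 0.47 (SE) for A537T-TRAMP, with an adjusted p of 0.973, and the sign of each depended on single libraries. For mmu-miR-133a-3p the values were 0.04 ± 0.79 and -0.46 ± 0.52 (SE), with adjusted p of 0.994 and 0.705. For mmu-miR-206-3p they were 0.28 ± 1.54 and -0.79 ± 1.04 (SE), with adjusted p of 0.979 and 0.744.

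Between KO-TRAMP and WT-TRAMP at 30 weeks, 0 of 6 members tested passed, as did 0% of 515 miRNAs, with 1 of the 6 and 102 of all miRNAs at an unadjusted p under 0.05. mmu-miR-206-3p stood at 24.4, 20.3 and 22.09 CPM in KO-TRAMP and at 3.69, 8.55 and 7.72 CPM in WT-TRAMP. These values did not overlap, which was not counted for all 515 miRNAs. The log2 difference was 1.67 ± 0.32 (SE), with an adjusted p of 0.107. mmu-miR-1a-3p differed by 0.54 ± 0.61 (SE), with an adjusted p of 0.647, and mmu-miR-133a-3p by 0.07 ± 0.33 (SE), with an adjusted p of 0.920 and a sign that turned under edgeR, DESeq2 and the authors' size factors. edgeR called 0 members, the fit of all 36 libraries 1 and DESeq2 2. Without KO-TRAMP library 16, limma called 4 of the 6.

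The largest difference of that comparison was in mmu-miR-499-5p, which the following values describe after they were seen. KO-TRAMP libraries 17 and 18 held 620.5 and 400 CPM (7648 and 6243 reads), whereas library 16 of the same group held 0.799 CPM (9 reads). The WT-TRAMP libraries held 3.58, 0.547 and 1.72 CPM, and the A537T-TRAMP libraries 1.03, 0.660 and 0.398 CPM. Library 16 lay within the WT-TRAMP range, so the groups overlapped, and the log2 difference of 4.84 ± 2.25 (SE) had an adjusted p of 0.292. Without library 16 it was 7.54, with an adjusted p of 0.00126. DESeq2 gave 7.29 with an adjusted p of 9.31e-05, and the fit of all 36 libraries an adjusted p of 0.0135.

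The other members did not show a rise of this size in libraries 17 and 18. mmu-miR-208b-3p, which is known with mmu-miR-499-5p from slow fibres, had 0 reads in libraries 16, 17 and 18. mmu-miR-1a-3p stood at 8399 and 5318 CPM in libraries 17 and 18 and at 1649 CPM in library 16, and the passenger strand mmu-miR-499-3p had 4 reads in all 36 libraries, 3 of them in library 18 and 1 in A537T library 34 of 10 weeks. Of the reads of the 7 members, mmu-miR-499-5p made up 6.62% and 6.50% in libraries 17 and 18, and at most 0.0835% in any other. The smooth muscle miRNAs held 34.3% and 24.3% of the other reads there and 5.60% in library 16, and mmu-miR-375-3p, an epithelial and neuroendocrine miRNA, stood at 10627 and 8443 CPM there and at 622 CPM in library 16. The 8 miRNAs listed for prostate epithelium, mmu-miR-375-3p among them, showed no such rise together. They held 7.31% and 7.70% of the other reads in libraries 17 and 18 and 8.24% in library 16. Their part in the high values was not tested.

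Between A537T-TRAMP and WT-TRAMP at 30 weeks, 0 of 6 members passed, as did 0% of 505 miRNAs. No member had an unadjusted p under 0.05, against 72 of all miRNAs, and edgeR, DESeq2 and the fit of all 36 libraries called 0 members. The log2 difference was 0.01 ± 0.30 (SE) for mmu-miR-1a-3p, with an adjusted p of 0.999 and a sign that depended on the setting, 0.23 ± 0.31 (SE) for mmu-miR-133a-3p, with an adjusted p of 0.755, and 0.85 ± 0.61 (SE) for mmu-miR-206-3p, with an adjusted p of 0.519.

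Whether the difference between mutant and WT itself changed with age or with TRAMP was tested as an interaction. For KO against age, 0 of 7 members and 0% of 504 miRNAs passed in limma, with 6 of 7 members and 68 of all miRNAs at an unadjusted p under 0.05. The log2 interaction was 4.27 ± 1.03 (SE) for mmu-miR-1a-3p, with an adjusted p of 0.285, 3.29 ± 0.89 (SE) for mmu-miR-133a-3p, with an adjusted p of 0.2999, and 4.22 ± 2.30 (SE) for mmu-miR-206-3p, with an adjusted p of 0.381. edgeR called 0, the fit of all 36 libraries 1 and DESeq2 6, and limma called 6 without KO library 32 and 4 without WT library 19. For KO against TRAMP at 10 weeks, 0 of 7 members and 0% of 511 miRNAs passed, with 6 members and 62 miRNAs at an unadjusted p under 0.05, and with 0 members called by edgeR, 0 by DESeq2 and 2 by the fit of all 36 libraries. There the interaction was 4.21 ± 1.39 (SE) for mmu-miR-1a-3p, with an adjusted p of 0.347, 3.29 ± 1.26 (SE) for mmu-miR-133a-3p, with an adjusted p of 0.386, and 5.28 ± 2.43 (SE) for mmu-miR-206-3p, with an adjusted p of 0.404.

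For A537T, 0 of 7 members and 0% of 516 miRNAs passed against age, and 0 of 7 and 0% of 506 against TRAMP, with 1 member at an unadjusted p under 0.05 in each, 27 of all miRNAs in each, and 0 members called by edgeR, DESeq2 or the fit of all 36 libraries. mmu-miR-1a-3p had an interaction of 1.47 ± 0.68 (SE) with age, with an adjusted p of 0.773, and of 1.20 ± 0.82 (SE) with TRAMP, with an adjusted p of 0.634. For mmu-miR-133a-3p the values were 1.14 ± 0.57 and 0.71 ± 0.79 (SE), with adjusted p of 0.773 and 0.717, and for mmu-miR-206-3p -1.42 ± 1.24 and 0.48 ± 1.29 (SE), with adjusted p of 0.773 and 0.875. The different counts of calls in KO and in WT or A537T are thus not shown to be a difference between the lines.

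The members did not keep 1 ratio to each other. mmu-miR-133a-5p had the smallest SD of the log2 ratio to mmu-miR-1a-3p over the 36 libraries, at 0.43, with 0.960 to 2.90 reads per 1000 reads of mmu-miR-1a-3p. mmu-miR-133a-3p had 35.99 to 294 per 1000, with an SD of the log2 ratio of 0.69 against 2.17 for its log2 level. This contrast rests on the span between the groups. At 30 weeks the SD of its ratio was larger than that of its level, at 0.45 against 0.16 without TRAMP and 0.54 against 0.44 with TRAMP. Without TRAMP at 30 weeks the ratio ran from 107 to 294 per 1000, with TRAMP at 30 weeks from 35.99 to 130, and the lowest values were those of KO-TRAMP libraries 17 and 18, at 35.99 and 70.4.

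mmu-miR-206-3p ran from 0.854 to 61.7 reads per 1000 of mmu-miR-1a-3p, and the SD of this log2 ratio was 1.72. In WT and A537T of 10 weeks, and in KO library 32, the ratio was 12.7 to 25.6 per 1000. In KO libraries 31 and 33 it was 4.05 and 3.60 per 1000, below the other 7 libraries of that age without TRAMP. At 30 weeks without TRAMP the 3 WT libraries had 51.4, 1.48 and 16.98 per 1000 although their mmu-miR-1a-3p differed little. The highest ratio, 61.7 per 1000, was in WT-TRAMP library 2 of 10 weeks, and KO-TRAMP library 9 had 35.9.

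mmu-miR-499-5p had 0.0227 to 0.387 reads per 1000 of mmu-miR-1a-3p at 10 weeks without TRAMP. A537T library 36 had the lowest of these values. KO-TRAMP library 9, the library of another group with the most mmu-miR-1a-3p, had 0 reads of mmu-miR-499-5p, which allows up to 0.469 CPM, and 2 reads of mmu-miR-208b-3p. Both libraries thus held mmu-miR-1a-3p and mmu-miR-206-3p with almost no mmu-miR-499-5p, a likeness that was noticed after the values were seen. It did not extend to mmu-miR-208b-3p. That member had 0.0114 reads per 1000 of mmu-miR-1a-3p in library 9 and 0.00207 in library 36, on 2 reads and 1 read. Its 0.313 CPM in library 9 was the highest of the 27 libraries of the other 9 groups. In KO-TRAMP libraries 17 and 18 the ratio was 73.9 and 75.2 per 1000, and in the other libraries of the series it did not exceed 0.918.

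**Figure D4:**
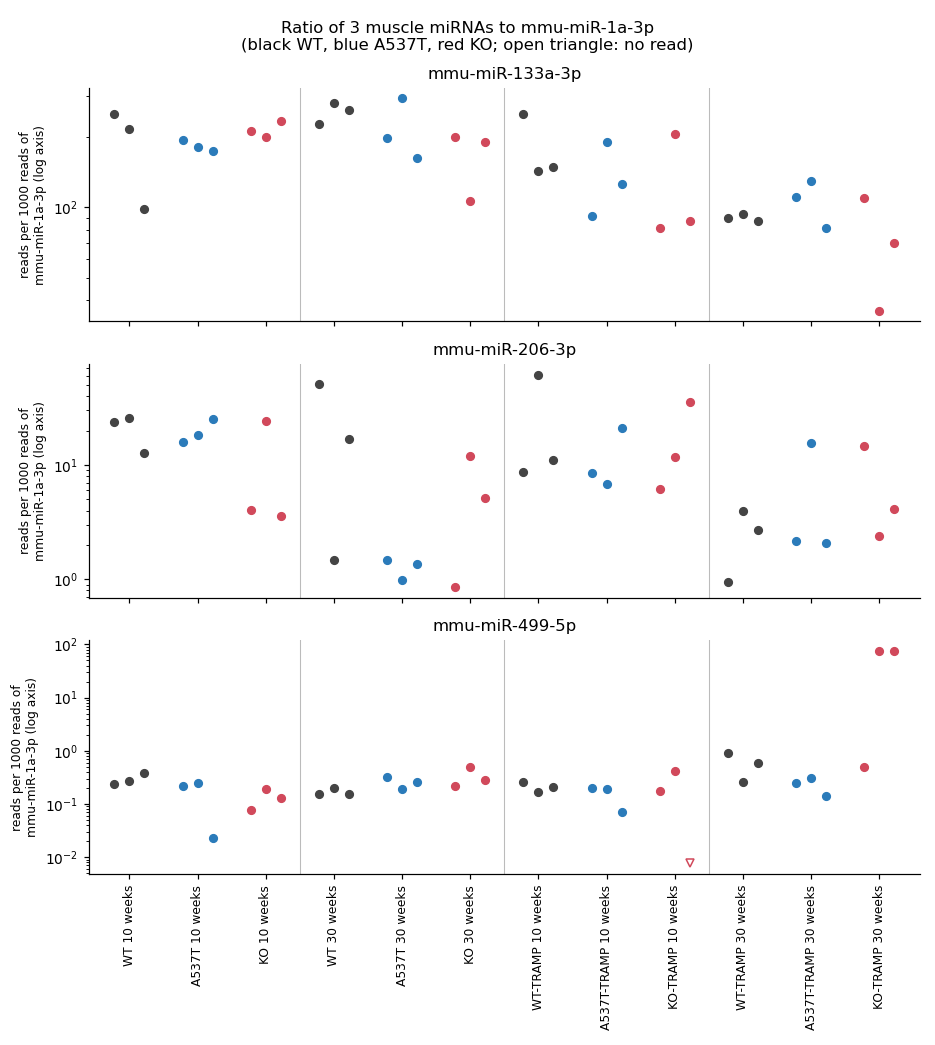
Each panel gives the reads of 1 member per 1000 reads of mmu-miR-1a-3p on a log axis, with 1 point per library and 12 groups along the x axis. mmu-miR-133a-3p keeps within 35.99 to 294, mmu-miR-206-3p spreads from 0.854 to 61.7, and mmu-miR-499-5p stands at 73.9 and 75.2 in 2 KO-TRAMP libraries of 30 weeks and at 0.918 or less elsewhere.

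Over the 36 libraries, the log2 level of each member was set beside the log2 sum of the other 6. Pearson's r was 0.992 for mmu-miR-133a-5p, 0.966 for mmu-miR-1a-3p, 0.948 for mmu-miR-133a-3p and for mmu-miR-133b-3p, 0.902 for mmu-miR-208b-3p, 0.874 for mmu-miR-206-3p and 0.555 for mmu-miR-499-5p. Taken on deviations from group means, so that differences between groups do not enter, r was 0.974 for mmu-miR-133a-5p, 0.922 for mmu-miR-1a-3p, 0.697 for mmu-miR-206-3p and 0.574 for mmu-miR-499-5p. These r are descriptions, since the libraries fall into groups and share a denominator.

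The other miRNAs most like the 7 were sought among 508 by r with the log2 sum of the members over the 36 libraries. The first 5 were mmu-miR-378b (0.958), mmu-miR-378c (0.951), mmu-miR-378a-3p (0.934), mmu-miR-378a-5p (0.932) and mmu-miR-378d (0.931), of a family that is abundant in muscle. They were followed by mmu-miR-1a-1-5p (0.926), the passenger strand of 1 copy of miR-1a, mmu-miR-149-5p (0.907), mmu-miR-653-5p (0.849), mmu-miR-486b-3p (0.813) and mmu-miR-486a-3p (0.803). On deviations from group means the 10 values ran from 0.465 for mmu-miR-486b-3p to 0.834 for mmu-miR-378b. mmu-miR-378a-3p ran from 2817 to 13969 CPM at 10 weeks without TRAMP and from 1405 to 4175 CPM in the other 27 libraries, so its range was much narrower than that of mmu-miR-1a-3p. It fell by 1.88 on the log2 scale (SE 0.23) with age in WT, with an adjusted p of 0.00908 in limma.

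mmu-miR-499-5p had other companions, which were looked up after its values were seen. Its r over the 36 libraries was highest with mmu-miR-504-5p (0.909), which stood at 73.3 and 69.3 CPM in KO-TRAMP libraries 17 and 18 and at 3.996 CPM in library 16. mmu-miR-7689-3p (0.820), mmu-miR-298-5p (0.780), mmu-miR-296-3p (0.759) and mmu-miR-296-5p (0.758) came next, and none of these was among the 10 most like the sum of the 7.

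Of 11 further striated muscle miRNAs, mostly passenger strands and relatives, only mmu-miR-1a-1-5p was abundant enough to be tested in the age and TRAMP comparisons. It fell with the members between 10 and 30 weeks in WT, by 3.27 on the log2 scale (SE 0.45) with an adjusted p of 0.0130, and between WT-TRAMP and WT, by 3.30 (SE 0.48) with an adjusted p of 0.00297. The heart miRNA mmu-miR-208a-3p had 0 to 4 reads per library and 14 in all, and mmu-miR-208a-5p, mmu-miR-208b-5p, mmu-miR-133b-5p and mmu-miR-133c had 0 reads in the series.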

How the data were processed

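Small RNA libraries of total RNA were sequenced on the NovaSeq platform. The authors joined and trimmed read pairs, counted miRNAs with mirDeep2 against GRCm38 and miRBase, summed identical miRNAs and divided by size factors. The deposited values are therefore a signal of normalised counts in 8 tables of 6 libraries. The deposited tables of the authors' own comparisons (shrunken fold changes and s-values) were not used. Columns carry a library number but no group name. A column found in both mutant tables of 1 background and age was taken as WT, and the others as the mutant that the table is named for, with "Mut" read as A537T. Columns without a group numbered 0.

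Whole reads were recovered from 100% of values (tolerance 0.01 reads), and each library was scaled to CPM. The main test was limma 3.58.1 (R 4.3.3) with a variance trend on log2(CPM + 1) for miRNAs with a mean of at least 1 CPM over the libraries compared, two-sided, with Benjamini-Hochberg adjustment at 0.05 and checked on simulated data. Alternatives were a pseudocount of 10 CPM, no filter, a mean of at least 10 CPM, a total without the 7 members, 1 fit of all 36 libraries, edgeR 4.0.16, DESeq2 1.42.0, the authors' size factors and leaving out each library. All 7 members were named in the text, with full statistics for mmu-miR-1a-3p, mmu-miR-133a-3p and mmu-miR-206-3p, with others where they differed, and with the 10 most alike miRNAs. The members and lists were chosen with earlier results of these data known. Wilson intervals (95%) and the limit of 3 reads for a count of 0 cover counting error only, as PCR copies were not marked by molecular identifiers. The study's methods describe the replicates as biological, from 3 mice of each line and time point.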

Additional observations from a re-analysis of the deposited data

How the results depend on the processing

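Counts of members called by limma stayed within 1.5 times the reported count in 124 pairs of a comparison and an alternative other than leaving out a library and moved further in 10. The 124 included all those with a pseudocount of 10 CPM, no filter, a mean of at least 10 CPM, a total without the 7 members or edgeR. The fit of all 36 libraries called 6 members between KO and WT at 10 weeks, 1 between KO-TRAMP and WT-TRAMP at 30 weeks, 2 between KO-TRAMP and KO, 1 for the interaction of KO with age and 2 for that with TRAMP. DESeq2 called 6 between KO and WT at 10 weeks, 2 at 30 weeks, 2 between KO-TRAMP and WT-TRAMP at 30 weeks, 1 in KO with age and 6 for the interaction of KO with age. Leaving out 1 library, which leaves 2 in its group, gave 0 to 6 calls between KO and WT at 10 weeks, 0 to 4 between KO-TRAMP and WT-TRAMP at 30 weeks, 4 to 7 in WT with age, 0 to 1 in KO with age and 0 to 6 for the interaction of KO with age. The cause was not tested. No paired analysis was possible because the columns carry no replicate numbers.

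None of the single differences that changed sign had passed the test. Under edgeR, DESeq2 and the authors' size factors in turn, the log2 difference was 0.20, 0.23 and 0.18 for mmu-miR-133b-3p between KO and WT at 30 weeks, and 0.0506, 0.0067 and 0.0400 for mmu-miR-133a-3p between A537T and WT at 30 weeks. It was -0.0701, -0.0633 and -0.0865 for mmu-miR-133a-3p and -0.0898, -0.0860 and -0.0590 for mmu-miR-133b-3p between KO-TRAMP and WT-TRAMP at 30 weeks. For mmu-miR-1a-3p it was 0.27, 0.26 and 0.15 between A537T-TRAMP and WT-TRAMP at 10 weeks and -0.0638, -0.0618 and -0.10 at 30 weeks. In the comparison at 10 weeks edgeR and DESeq2 gave 0.00026 and 0.0031 for mmu-miR-133a-3p, 0.16 and 0.15 for mmu-miR-133a-5p, and 0.0670 and 0.0652 for mmu-miR-133b-3p. Between KO-TRAMP and KO edgeR gave 0.0404 for mmu-miR-206-3p. Leaving out 1 library also turned signs, and the log2 difference then ranged as follows. For KO minus WT at 30 weeks it ran from -0.10 to 0.15 for mmu-miR-133a-3p, -0.0404 to 0.27 for mmu-miR-133a-5p, -0.28 to 0.19 for mmu-miR-133b-3p, -2.09 to 0.36 for mmu-miR-206-3p. For A537T minus WT at 30 weeks it ran from -0.18 to 0.0758 for mmu-miR-133a-3p, -0.19 to 0.24 for mmu-miR-133b-3p. For KO-TRAMP minus WT-TRAMP at 10 weeks it ran from -0.44 to 1.38 for mmu-miR-1a-3p, -0.88 to 1.00 for mmu-miR-133a-3p, -0.51 to 1.14 for mmu-miR-133a-5p, -0.72 to 1.11 for mmu-miR-133b-3p, -1.49 to 1.56 for mmu-miR-206-3p. For A537T-TRAMP minus WT-TRAMP at 10 weeks it ran from -0.59 to 0.40 for mmu-miR-1a-3p, -0.99 to 0.23 for mmu-miR-133a-3p, -0.86 to 0.31 for mmu-miR-133a-5p, -1.02 to 0.32 for mmu-miR-133b-3p, -1.80 to 0.31 for mmu-miR-206-3p. For KO-TRAMP minus WT-TRAMP at 30 weeks it ran from -0.15 to 0.37 for mmu-miR-133a-3p, -0.11 to 0.35 for mmu-miR-133b-3p. For A537T-TRAMP minus WT-TRAMP at 30 weeks it ran from -0.25 to 0.23 for mmu-miR-1a-3p, -0.0594 to 0.44 for mmu-miR-133a-3p, -0.0929 to 0.30 for mmu-miR-133a-5p. For KO with age it ran from -0.67 to 0.77 for mmu-miR-499-5p. For KO-TRAMP minus KO it ran from -1.87 to 1.80 for mmu-miR-206-3p. For the interaction of A537T with TRAMP it ran from -0.54 to 1.58 for mmu-miR-206-3p. The depth of library 35 limits the rare members, since 1 read there is 1.53 CPM.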
